A study of Mus musculus with 4 samples.

Results

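The nuclear genes of the mitochondrial respiratory chain and of ATP synthase were examined as a set of 93 genes of the 24346 in the table. They were chosen by name alone: every row whose symbol begins with Nduf followed by a, b, c, s or v, with Uqcr, with Cox4 to Cox8 or with Atp5, together with Sdha to Sdhd and Cyc1. The set holds 75 broadly expressed subunits (36 of complex I, 4 of complex II, 9 of complex III, 11 of complex IV and 15 of complex V), 8 tissue-restricted isoforms of complex IV, 7 complex I assembly factors (Ndufaf1 to Ndufaf7) and 3 further genes, Cox7a2l, Atp5s and Atp5sl. Ndufa4 carries a complex I name but is a subunit of complex IV and was counted there. Subunits encoded in mitochondrial DNA do not fall under the rule and are not analysed here. Averaged over the 4 libraries, 91 of the 93 genes reached 1 FPKM and were tested. The exceptions, Cox7b2 and Cox8c, which encode testis isoforms of complex IV subunits, were listed at 0 in every library.

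RNA came from endothelial cells of the heart, purified by flow cytometry from young C57BL/6 mice and labelled as taken fresh from the tissue. Of the 4 libraries, 2 carry the genotype label ECp53KO, which the labels do not spell out, and are called ECp53KO_170 and ECp53KO_172 after the numbers in their titles. The libraries they were set against, Ctrl_178 and Ctrl_182, are labelled as wild type. For the promoter that drives recombination, the deleted part of the gene and the exact ages, nothing is stated in the sources used here. No label says that each library came from its own mouse, so every p-value below measures the spread between libraries, which may be technical.

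The respiratory chain passes electrons from NADH through complex I, and from succinate through complex II, to ubiquinone, on to complex III, cytochrome c and complex IV, and finally to oxygen. Complexes I, III and IV pump protons, and complex V, ATP synthase, uses the gradient to make ATP. Heart muscle is densely packed with mitochondria and uses its own isoforms of some complex IV subunits (Cox6a2, Cox7a1, Cox8b), whereas endothelial cells draw much of their ATP from glycolysis and are known to need the chain for biosynthesis during proliferation.

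Promoter windows of the respiratory chain genes were searched for the letters of known regulators, and most windows lacked those of NRF1, most lacked those of ETS-family factors and most lacked those of YY1. The factors NRF1, GABP (an ETS-family factor) and YY1 are known regulators of nuclear respiratory chain genes, and their core letters were sought on both strands in windows that run from 250 bases before to 50 bases after each RefSeq start site (GRCm38.p6). In all, 76 of the 93 genes matched a window, with 82 windows between them. The NRF1 letters, GCGCA and GCGC separated by any 1 base, stood in 24.4% of these windows, against 10.5% of the windows of all tested genes and 4.6% of all windows in the RefSeq table. The YY1 letters AAGATGGCG stood in 11% of them, against 3.22% of the windows of tested genes and 1.4% of all windows, whereas the ETS letters CCGGAAG, in 20.7%, were near the 18.4% of tested genes. In the 68 windows of broadly expressed subunits, the NRF1 letters stood in 18 (26.5%), the ETS letters in 16 and the YY1 letters in 7. Tissue-restricted isoforms had 4 windows (Cox6b2, Cox7a1, Cox7b2, Cox8b), too few for a share to be set against the others. Beside the windows of tested genes, the GC-box letters GGGCGG were in 42.7% of the 82 windows, against 63.6%, the E-box letters CANNTG in 70.7%, against 63.2%, the MEF2 consensus in none, against 1.66%, and the decamer of the p53 response element in 4.88%, against 6.86%. A CpG-rich pattern such as that of NRF1 can overlap GC-rich letters of other motifs, and a match is a run of letters, not a site shown to be bound. The 250 bases before the start of 5 genes are given 5′ to 3′ on the gene's strand in RefSeq GRCm38.p6, with NRF1 and ETS letters in capitals. Cox6a1, Sdhd and Atp5k are broadly expressed subunits of complexes IV, II and V. Cox6a1 had the highest mean level of all members, Sdhd had the smallest excess in ECp53KO_170 of the broadly expressed subunits and Atp5k had the largest fold change of complex V. Cox7a1 and Cox8b are muscle isoforms of complex IV subunits.
Cox6a1 (chr5:115348959-115349208, minus strand): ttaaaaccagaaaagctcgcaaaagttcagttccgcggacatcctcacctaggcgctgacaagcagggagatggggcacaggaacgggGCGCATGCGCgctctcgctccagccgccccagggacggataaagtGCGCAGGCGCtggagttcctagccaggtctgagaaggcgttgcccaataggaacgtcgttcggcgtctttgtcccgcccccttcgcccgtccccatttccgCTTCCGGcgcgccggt
Sdhd (chr9:50603850-50604099, minus strand): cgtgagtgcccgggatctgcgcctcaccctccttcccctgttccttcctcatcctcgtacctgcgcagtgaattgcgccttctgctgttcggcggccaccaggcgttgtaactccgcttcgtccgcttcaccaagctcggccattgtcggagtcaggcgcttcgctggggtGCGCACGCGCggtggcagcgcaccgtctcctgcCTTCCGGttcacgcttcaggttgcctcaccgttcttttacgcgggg
Atp5k (chr5:108434400-108434649, minus strand): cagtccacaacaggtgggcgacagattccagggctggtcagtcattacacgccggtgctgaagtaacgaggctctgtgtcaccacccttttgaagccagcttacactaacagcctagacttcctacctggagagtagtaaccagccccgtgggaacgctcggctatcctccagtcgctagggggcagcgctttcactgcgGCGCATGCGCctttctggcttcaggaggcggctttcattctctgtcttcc
Cox7a1 (chr7:30183921-30184170, plus strand): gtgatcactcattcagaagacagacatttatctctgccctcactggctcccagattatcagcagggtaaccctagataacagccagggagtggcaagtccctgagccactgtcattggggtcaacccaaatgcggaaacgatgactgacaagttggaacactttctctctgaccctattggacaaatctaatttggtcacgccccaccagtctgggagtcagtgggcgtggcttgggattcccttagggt
Cox8b (chr7:140900447-140900696, minus strand): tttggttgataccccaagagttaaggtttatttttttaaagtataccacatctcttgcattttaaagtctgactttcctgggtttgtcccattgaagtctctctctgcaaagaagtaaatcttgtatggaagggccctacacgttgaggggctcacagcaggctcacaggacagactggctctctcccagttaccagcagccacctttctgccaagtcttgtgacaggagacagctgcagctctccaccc
The Cox6a1 sequence holds the NRF1 letters in 2 places and the ETS letters in 1 place. The Sdhd sequence holds each of them in 1 place, the Atp5k sequence holds the NRF1 letters in 1 place, and the Cox7a1 and Cox8b sequences hold neither. The full Atp5k window, which runs 50 bases past the start, also holds the ETS letters, but not wholly within the bases shown.

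Levels are given in FPKM, fragments scaled to transcript length and to library depth, so levels of different genes can be set side by side, but only approximately. A trend with transcript length remained and differed between the libraries, as described below. The depth of the libraries is unknown, so no counting error can be given. Trp53, the gene named by the genotype label, stood at 4.41 and 2.45 FPKM in the ECp53KO libraries, against 52.1 and 28.8 FPKM in the Ctrl libraries (limma: log2 fold change -3.20 ± 0.36, SE, and adjusted p = 0.146). All 12 endothelial markers were present, with a summed level of 6735 to 6907 FPKM in ECp53KO and 6595 to 6667 FPKM in Ctrl. The lowest, Vwf, had only 19.5 to 28.3 FPKM. Without overlap, 4 were higher (Kdr, Tek, Emcn and Egfl7) and 4 lower (Cdh5, Esam, Cldn5 and Vwf) in ECp53KO. That is 33.3% in each direction, beside 19.1% and 16.8% of all tested genes. Markers of other heart cells were present at lower sums: 22 cardiomyocyte genes had 362 to 592 FPKM in ECp53KO and 335 to 349 FPKM in Ctrl, 12 pericyte and smooth muscle genes had 153 to 188 FPKM in ECp53KO and 102 to 122 FPKM in Ctrl, and 10 erythroid genes had 98.4 to 466 FPKM in ECp53KO and 42.6 to 69.8 FPKM in Ctrl. The leukocyte list summed to 9.32 and 10.4 FPKM in ECp53KO, against 14.96 and 9.34 FPKM in Ctrl, the fibroblast list to 61.7 and 51.0 FPKM in ECp53KO, against 53.04 and 51.2 FPKM in Ctrl, and 6 brown adipocyte markers to less than 1 FPKM in every library. The highest sum of the cardiomyocyte, mural and erythroid lists was in ECp53KO_170 in each case. Of the erythroid genes, Hbb-b1, a beta globin with near-identical copies, had 191 and 55.4 FPKM in ECp53KO, against 37.5 and 19.9 FPKM in Ctrl. The alpha globin Hba-a1 had 49.5 and 28.1 FPKM in ECp53KO, against 20.6 and 12.9 FPKM in Ctrl. Hba-a2 had 96.4 and 3.97 FPKM in ECp53KO, against 0.387 and 0.136 FPKM in Ctrl. It was tested only because of its ECp53KO values, so its difference is a description. Bpgm overlapped, with 7.25 and 2.66 FPKM in ECp53KO, against 4.68 and 4.94 FPKM in Ctrl. Of 8 tested fibroblast genes, 3 had a positive fold change, with a median of -0.07 on the log2 scale. Without overlap, 3 were higher (Dpt, Gsn and Pdgfra) and 3 lower (Col1a2, Lum and Postn). That is 37.5% in each direction, beside 19.1% and 16.8% of all tested genes. The lower ECp53KO value of Pdgfra, 3.055 FPKM, was only just above the higher Ctrl value, 3.050 FPKM.

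No respiratory chain gene passed the test between genotypes. Of the 91 genes tested with limma on log2(FPKM + 1), 0 had an adjusted p under 0.05 in either direction, and the smallest adjusted p was 0.864. Among all 11332 tested genes, 0.0265% were called higher and 0.0882% lower. At an unadjusted p under 0.05, 4 members were higher in ECp53KO (1.97% of all tested genes were) and 0 were lower (2.82% of all). With small RNA loci left out of the tested genes, 8 members were higher at that p, beside 2.54% of all. The 2 ECp53KO libraries were both above the 2 Ctrl libraries in 19 members, which is 20.9% of them beside 19.1% of all tested genes, and both below in 1 member, 1.10% beside 16.8%. That 1 member, Cox6b2, was tested only because of its Ctrl values. Of the 75 broadly expressed subunits, 11 (14.7%) were higher in this way and 0 lower.

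Most members shared a direction, which was lost without 1 library. The fold change was positive in 82 of 91 members (in 51.7% of all tested genes), with a median log2 fold change of 0.21 over the members and 0.01 over all tested genes. ECp53KO_170 was the highest of the 4 libraries in 88 of the 91 members, against 36.3% of all tested genes. With the columns rescaled over loci other than small RNA, 68 of the 91 were positive and the median was 0.11 over the members, 0.02 over complex IV and -0.09 over all tested genes, and with the trend with transcript length removed 64 were positive. Summed FPKM were 732051 in ECp53KO_170 and 603783 in ECp53KO_172, against 617026 in Ctrl_178 and 609366 in Ctrl_182. Without ECp53KO_170 the median over the members was -0.06 and 34 of 91 fold changes were positive, and without ECp53KO_172 it was 0.52 with 48 members at an unadjusted limma p under 0.05 (7.52% of all tested genes). Because the cells were measured in bulk, more RNA of these genes per cell and more cells of a type rich in them cannot be told apart.

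The same pattern was seen in the level of the typical subunit. The median broadly expressed subunit stood at 161.6 FPKM in ECp53KO_170 and 119.6 FPKM in ECp53KO_172, against 116.6 FPKM in Ctrl_178 and 123.7 FPKM in Ctrl_182. ECp53KO_170 was above both Ctrl libraries in 73 of the 75 subunits, whereas it was in 42.5% of all tested genes. ECp53KO_172 was below both Ctrl libraries in 41 of the 75 (33.5% of all tested genes), between them in 23 and above both in 11. ECp53KO_170 exceeded the mean of the other 3 libraries by a median factor of 1.46, which ran between 1.08 for Sdhd and 1.92 for Ndufc1.

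**Figure D1:**
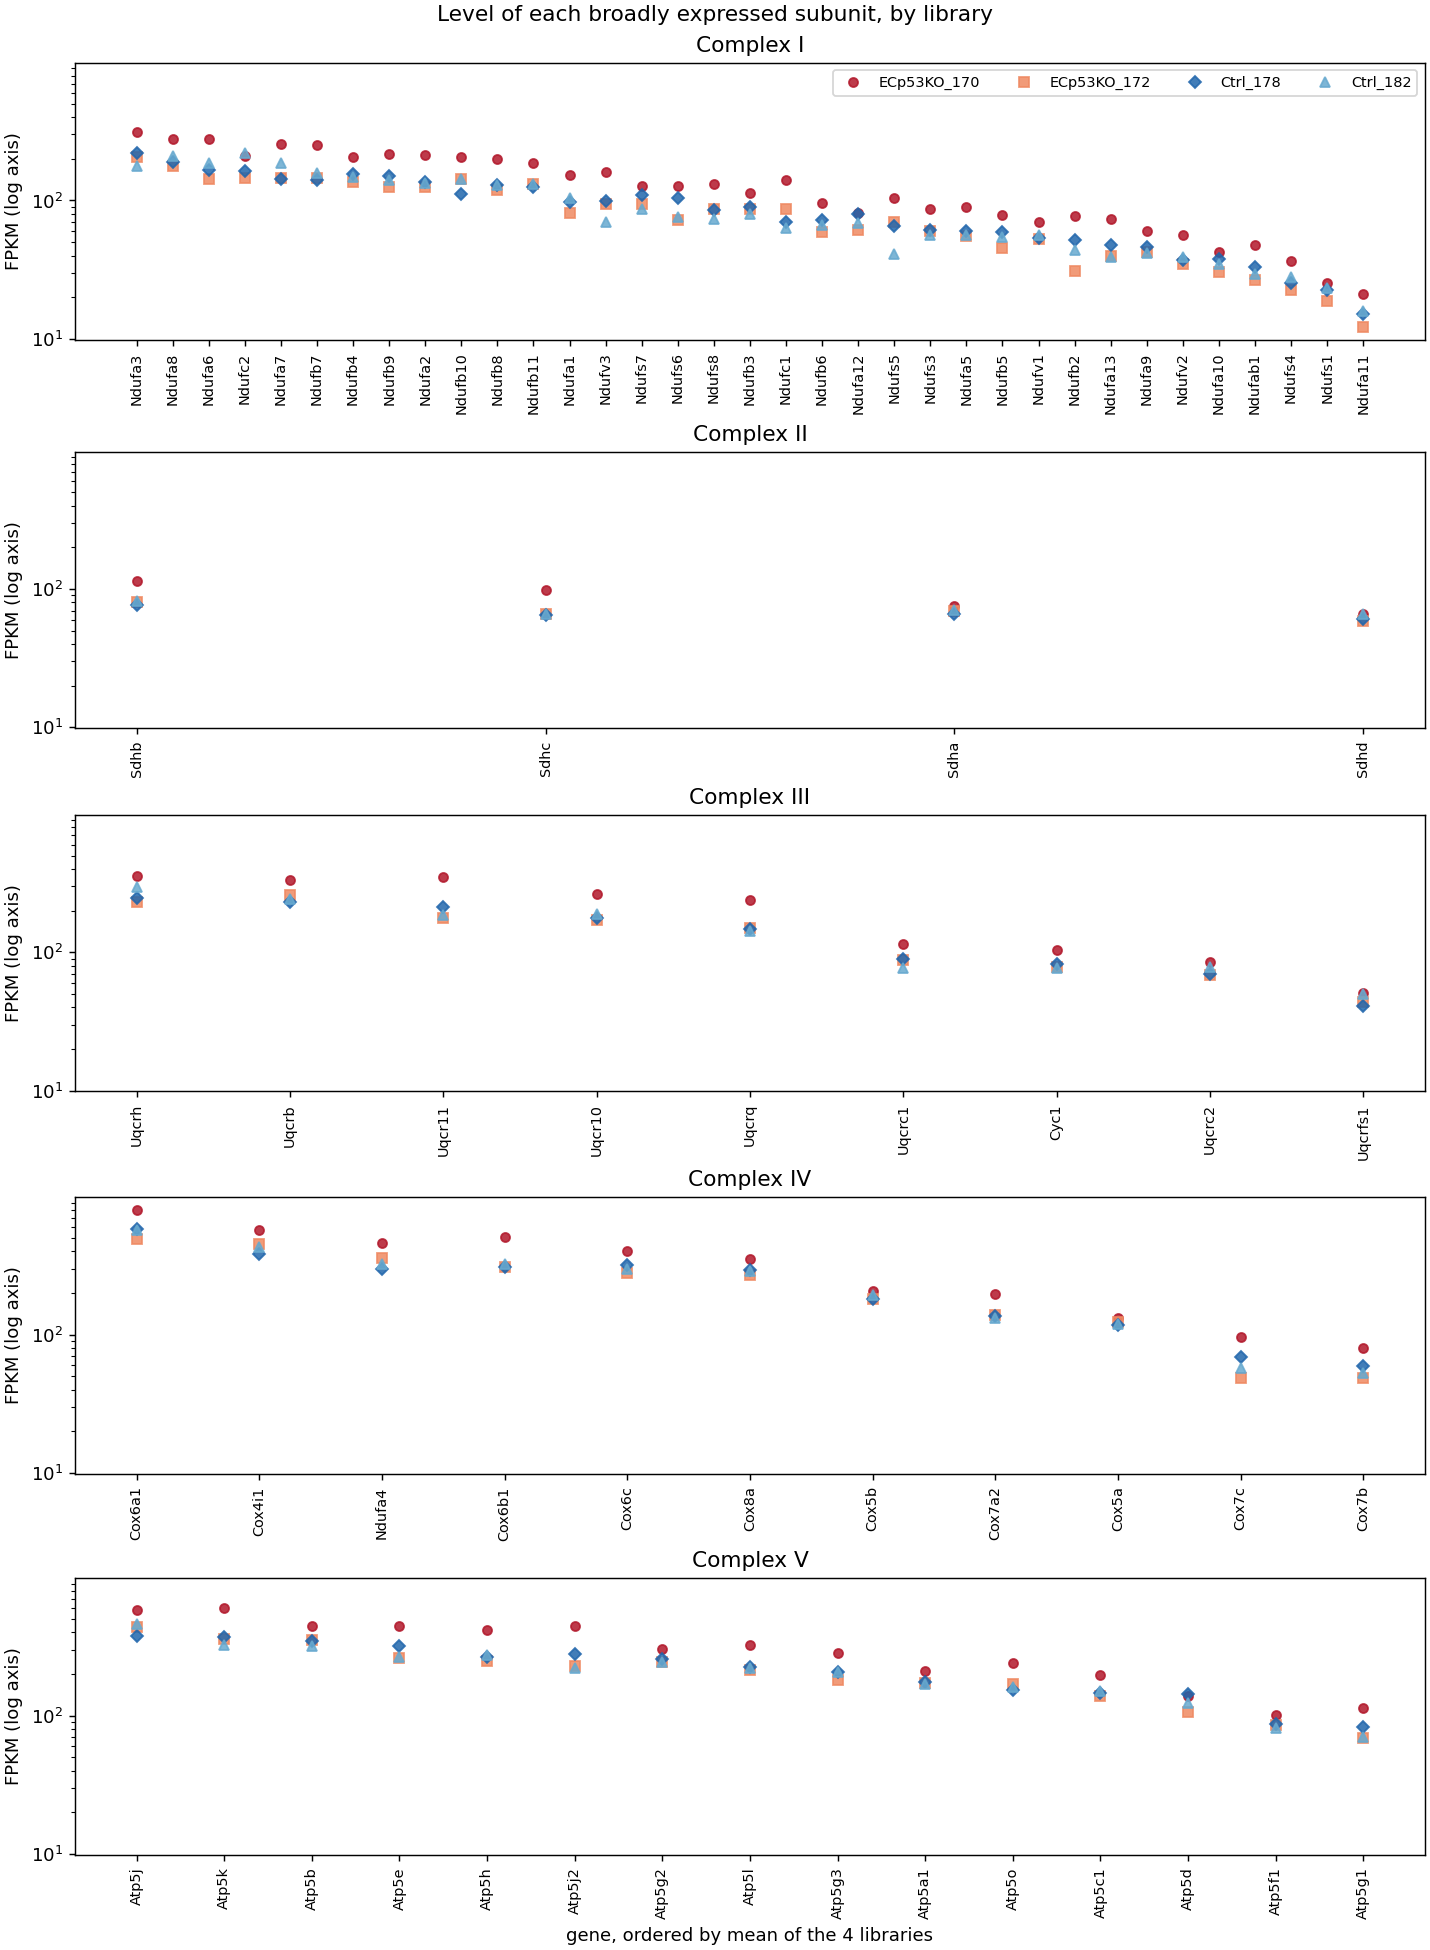
Level in FPKM (log axis) of 74 of the 75 broadly expressed subunits in the 4 libraries, in a panel for each complex, with genes ordered by their mean level. The ECp53KO_170 points lie above both Ctrl points in 72 of the 74 genes drawn. The other 3 libraries lie apart from each other in some genes. Ndufs5, for example, had 69.4 FPKM in ECp53KO_172, 65.9 FPKM in Ctrl_178 and 40.7 FPKM in Ctrl_182.

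Complex I, the NADH dehydrogenase, had a median log2 fold change of 0.19 over its 36 nuclear subunits, of which 32 had a positive value. The 7 core subunits, which hold the flavin and iron-sulfur clusters, had a median of 0.17 and the 29 accessory subunits one of 0.20. Summed over the complex, the level was 4933 and 3090 FPKM in ECp53KO_170 and ECp53KO_172, against 3343 and 3307 FPKM in Ctrl_178 and Ctrl_182, so ECp53KO_170 stood highest and ECp53KO_172 lowest. The mean level spanned 14.3-fold within the complex, between 16.1 FPKM for Ndufa11 and 230 FPKM for Ndufa3, both accessory subunits.

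Ndufc1, an accessory subunit of the membrane arm, had the largest fold change of complex I and the only unadjusted p under 0.05 among the broadly expressed subunits. It stood at 141 and 87.3 FPKM in ECp53KO, against 70.3 and 62.7 FPKM in Ctrl. Both ECp53KO values were above both Ctrl values, with a log2 fold change of 0.73 ± 0.26 (SE; limma, unadjusted p = 0.0380, adjusted p = 0.864). Without ECp53KO_170 its log2 fold change was 0.39. At the other end was Ndufc2, its partner in the same part of the membrane arm, at 211 and 146 FPKM in ECp53KO, against 164 and 219 FPKM in Ctrl. Its groups overlapped (log2 -0.11 ± 0.27, limma adjusted p = 0.943). The groups also did not overlap in Ndufs5, an accessory subunit, and Ndufs8, a core subunit that binds iron-sulfur clusters. With Ndufc1 these are 3 of the 36 subunits, 8.33% beside 19.1% of all tested genes. Ndufs5 had 104 and 69.4 FPKM in ECp53KO, against 65.9 and 40.7 FPKM in Ctrl, and Ndufs8 had 131 and 86.5 FPKM in ECp53KO, beside 84.7 and 73.8 FPKM in Ctrl. Another core subunit, Ndufv1, where NADH is oxidised, had 70.4 and 52.5 FPKM in ECp53KO, against 53.7 and 55.9 FPKM in Ctrl. ECp53KO_170 was the highest library and ECp53KO_172 the lowest. Ndufa3, the highest of the complex, overlapped, at 314 and 207 FPKM in ECp53KO, against 219 and 178.4 FPKM in Ctrl.

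Complex II, succinate dehydrogenase, was the most even complex. Its 4 subunits had mean levels between 62.9 and 88.6 FPKM, a span of 1.41-fold, and a median log2 fold change of 0.18, and no subunit separated the groups. Sdha, the catalytic flavoprotein, stood at 76.0 and 69.2 FPKM in ECp53KO, against 65.9 and 71.0 FPKM in Ctrl. Sdhb, which carries the iron-sulfur clusters, stood at 114 and 80.9 FPKM in ECp53KO, beside 77.3 and 82.2 FPKM in Ctrl. The membrane anchors gave different patterns. Sdhc had 98.6 FPKM in ECp53KO_170 and between 64.7 and 66.0 FPKM in each other library, whereas Sdhd had 66.5 and 58.9 FPKM in ECp53KO, against 60.5 and 65.6 FPKM in Ctrl. The log2 fold changes were 0.30 ± 0.23 for Sdhc and -0.01 ± 0.16 for Sdhd (SE; limma adjusted p = 0.864 and 0.991).

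Complex III, the cytochrome bc1 complex, had a positive fold change in all 9 subunits, with a median of 0.21 on the log2 scale and sums of 1895 and 1269 FPKM in ECp53KO_170 and ECp53KO_172, against 1296 and 1339 FPKM in Ctrl_178 and Ctrl_182. Uqcrq, a small subunit near the ubiquinone site, had the largest fold change, with 239 and 149 FPKM in ECp53KO, against 147 and 142 FPKM in Ctrl (log2 0.38 ± 0.27, limma adjusted p = 0.864). It and Uqcrb, at 332 and 261 FPKM in ECp53KO, beside 233 and 242 FPKM in Ctrl, were the subunits without overlap. They are 22.2% of the 9 subunits, beside 19.1% of all tested genes. Uqcrc2, a core protein, had the smallest fold change, with 85.5 and 68.6 FPKM in ECp53KO, against 69.9 and 78.7 FPKM in Ctrl (log2 0.05 ± 0.18). Cyc1, cytochrome c1, had 105 and 78.0 FPKM in ECp53KO, beside 82.0 and 76.8 FPKM in Ctrl, so that only ECp53KO_170 stood apart. The electron-carrying subunits were not the most abundant transcripts. Uqcrfs1, the Rieske iron-sulfur protein, was lowest at a mean of 46.4 FPKM, and Uqcrh, the hinge protein that binds cytochrome c1, highest at 283 FPKM.

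Complex IV, cytochrome c oxidase, held the most abundant transcript of the set and the smallest median fold change of the 5 complexes, 0.13 on the log2 scale over 11 broadly expressed subunits, all with a positive value. Cox6a1, an accessory subunit, stood at 799 and 492 FPKM in ECp53KO, against 582 and 566 FPKM in Ctrl. ECp53KO_170 was the highest library and ECp53KO_172 the lowest, and the log2 fold change was 0.13 ± 0.30 (SE; limma adjusted p = 0.942). The largest fold change was that of Ndufa4, with 456 and 359 FPKM in ECp53KO, beside 300 and 326 FPKM in Ctrl (log2 0.37 ± 0.22, limma adjusted p = 0.864). The smallest was that of Cox5b, with 206 and 181 FPKM in ECp53KO, against 181.7 and 195 FPKM in Ctrl (log2 0.04 ± 0.18). Beside 19.1% of all tested genes, 36.4% of the 11 subunits were higher in ECp53KO without overlap, namely Cox4i1, Cox5a, Cox7a2 and Ndufa4. Of these, Cox5a, which lies on the matrix side of the complex, was the most even, with 131 and 123 FPKM in ECp53KO, against 117 and 119.9 FPKM in Ctrl. Complex IV was the complex whose median sign turned when each library's trend with transcript length was removed, to -0.07.

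Complex V, ATP synthase, had a median log2 fold change of 0.24 over 15 subunits, 14 of them positive, and sums of 4844 and 3267 FPKM in ECp53KO_170 and ECp53KO_172, against 3434 and 3307 FPKM in Ctrl_178 and Ctrl_182. Atp5k, subunit e of the membrane part, which holds ATP synthase dimers together, had the largest fold change, with 601 and 359 FPKM in ECp53KO, against 368 and 327 FPKM in Ctrl (log2 0.42 ± 0.30, SE, limma adjusted p = 0.864). ECp53KO_172 lay between the Ctrl libraries. Atp5d, the delta subunit of the rotor, was the exception to the shared direction, with 139 and 106 FPKM in ECp53KO, beside 144 and 124 FPKM in Ctrl (log2 -0.13 ± 0.21, limma adjusted p = 0.912). Atp5b, the catalytic beta subunit, had 444 and 351 FPKM in ECp53KO, against 349 and 319 FPKM in Ctrl, without overlap, and Atp5o, the stalk subunit that confers sensitivity to oligomycin, had 239 and 168 FPKM in ECp53KO, beside 154 and 162 FPKM in Ctrl, also without overlap. These 2 genes are 13.3% of the 15 subunits, beside 19.1% of all tested genes. Atp5a1, the alpha subunit that alternates with beta in the catalytic head, overlapped, with 212 and 172.5 FPKM in ECp53KO, against 176 and 169.7 FPKM in Ctrl. Atp5j, coupling factor 6, was the highest transcript of the complex at 577 and 439 FPKM in ECp53KO, against 376 and 462 FPKM in Ctrl.

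The c-ring of ATP synthase is built from 1 mature peptide that 3 genes encode, and no change in the use of these genes separated the groups. Atp5g1 gave 16.3% and 13.9% of their summed level in ECp53KO_170 and ECp53KO_172, against 15.1% and 13.3% in Ctrl_178 and Ctrl_182. Atp5g2 gave 43.4% and 49.3% in ECp53KO, against 47.1% and 46.9% in Ctrl, and Atp5g3 gave 40.4% and 36.8% in ECp53KO, against 37.7% and 39.8% in Ctrl. The values overlapped in each of the 3 shares.

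**Figure D2:**
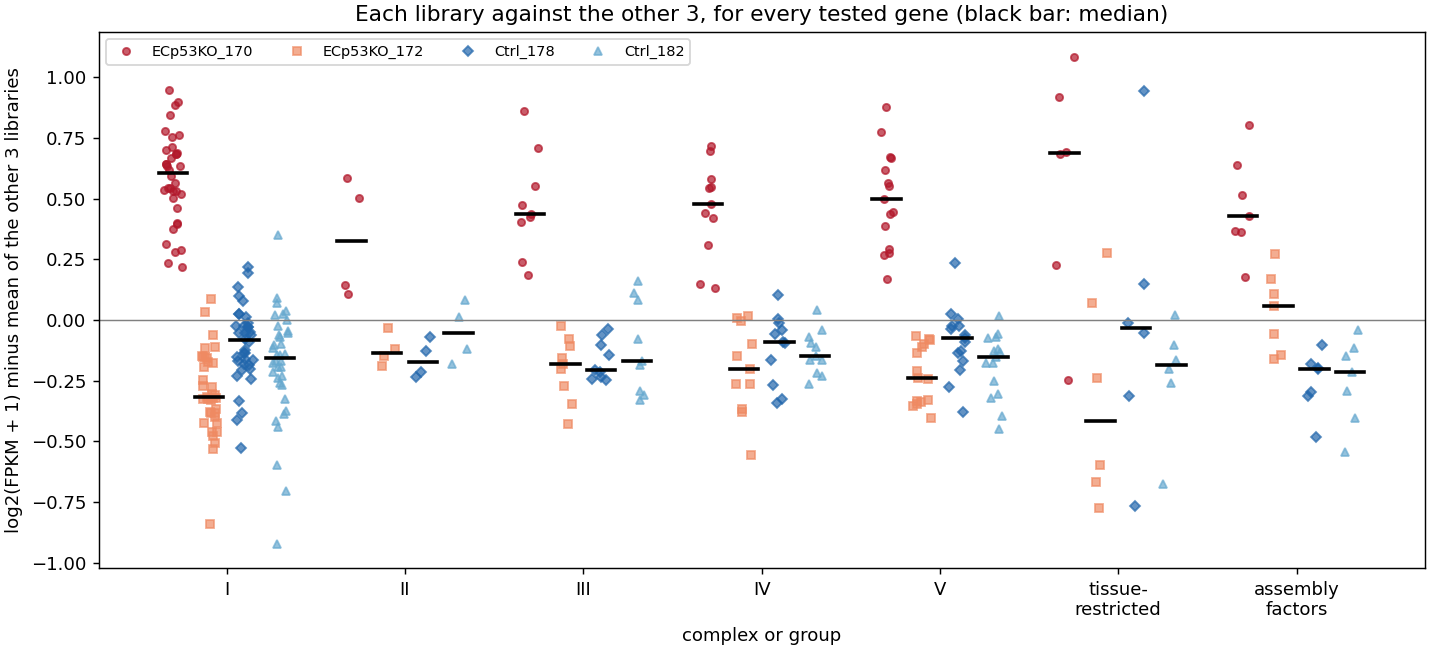
Log2(FPKM + 1) of each tested gene in a library minus its mean in the other 3 libraries, by complex and gene group, with 1 point a gene and a black bar at the median. The ECp53KO_170 medians are the highest in every group, and the ECp53KO_172 median is below 0 in every group but the assembly factors, where it is 0.06. The medians of both Ctrl libraries are below 0 in every group. For ECp53KO_172 and the Ctrl libraries, the mean of the other 3 includes ECp53KO_170.

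The muscle isoforms of complex IV were present at low levels beside their broadly expressed partners. The partner exceeded the muscle isoform 45.5-fold for Cox6a1 over Cox6a2, 6.07-fold for Cox7a2 over Cox7a1 and 18.0-fold for Cox8a over Cox8b, as ratios of the means over the 4 libraries. Together, Cox6a2, Cox7a1 and Cox8b summed to 80.8 and 46.8 FPKM in ECp53KO_170 and ECp53KO_172, against 45.3 and 46.9 FPKM in Ctrl_178 and Ctrl_182. They made up 5.66% and 4.95% of the summed level of the 6 genes in ECp53KO, against 4.29% and 4.54% in Ctrl. The groups did not overlap in this summed share, but of the 3 pairs taken singly only Cox7a1 had a share without overlap. Cox6a2 made up 2.77% and 1.60% of its pair in ECp53KO, against 2.04% and 1.87% in Ctrl. Cox8b made up 6.26% and 3.97% of its pair in ECp53KO, against 5.65% and 4.86% in Ctrl.

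Cox7a1, the muscle form of subunit VIIa, had the smallest unadjusted p of the set. It stood at 34.6 and 27.7 FPKM in ECp53KO, against 15.7 and 21.4 FPKM in Ctrl, with means of 31.1 ± 4.9 FPKM in ECp53KO and 18.5 ± 4.0 FPKM in Ctrl (SD, n = 2 each). Both ECp53KO values were above both Ctrl values, with a log2 fold change of 0.73 ± 0.22 (SE; limma, unadjusted p = 0.0191, adjusted p = 0.864), and of 0.57 without ECp53KO_170. Its share of the pair with Cox7a2 was 14.9% and 16.8% in ECp53KO, against 10.3% and 14.0% in Ctrl. Cox7a2 itself had 197 and 137 FPKM in ECp53KO, beside 136 and 132 FPKM in Ctrl (log2 0.30 ± 0.23, limma adjusted p = 0.864).

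Cox6a2 and Cox8b, the muscle forms of subunits VIa and VIII, overlapped between the groups. Cox6a2 had 22.7 and 8.02 FPKM in ECp53KO, against 12.1 and 10.8 FPKM in Ctrl, so that the ECp53KO libraries were the highest and the lowest of the 4 (log2 0.23 ± 0.46, SE, limma adjusted p = 0.934). Cox8b showed the same order, with 23.5 and 11.1 FPKM in ECp53KO, against 17.6 and 14.8 FPKM in Ctrl (log2 0.01 ± 0.35, limma adjusted p = 0.995). Without ECp53KO_170 their log2 fold changes were -0.46 and -0.49. Cox8a, the broadly expressed partner of Cox8b, had 352 and 270 FPKM in ECp53KO, beside 293 and 289 FPKM in Ctrl (log2 0.08 ± 0.22, limma adjusted p = 0.948). Cox6a2 overlaps Itgad on the other strand, and these libraries do not keep strand.

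Markers of heart muscle cells were read beside the muscle isoforms. The 22 cardiomyocyte markers summed to 592 and 362 FPKM in ECp53KO_170 and ECp53KO_172, against 349 and 335 FPKM in Ctrl_178 and Ctrl_182. The summed muscle isoforms amounted to 13.6% and 12.9% of that marker sum in ECp53KO, against 12.99% and 14.0% in Ctrl, so the groups overlapped in this ratio. Of the 19 cardiomyocyte markers tested, 15 had a positive fold change (51.7% of all tested genes had one) and 6 did not overlap, all higher in ECp53KO, which is 31.6% of them beside 19.1% of all tested genes. The fold change was negative in Myh6, Myl4, Mybpc3 and Atp2a2, whose groups overlapped. The smallest unadjusted limma p-values in the list, none past adjustment, were those of Csrp3, a Z-disc protein (11.5 and 9.45 FPKM in ECp53KO, against 5.38 and 4.83 FPKM in Ctrl), and Actn2, the sarcomeric alpha-actinin (2.28 and 1.72 FPKM in ECp53KO, against 0.732 and 0.698 FPKM in Ctrl), followed by Tnnc1, a troponin (21.7 and 17.1 FPKM in ECp53KO, against 9.85 and 13.3 FPKM in Ctrl). Actn2, 1 of the 6 genes without overlap, was under 1 FPKM in both Ctrl libraries. It was tested only because of its ECp53KO values, so its difference is a description. Ttn, which encodes the giant sarcomere protein titin, Ryr2, the calcium release channel, and Myh7, a slow myosin, were under 1 FPKM in every library and were not tested. The myosins of fast skeletal muscle, Myh1, Myh2 and Myh4, were listed at 0 in all 4 libraries, while Mylpf, a light chain of such muscle, had 11.2 and 7.81 FPKM in ECp53KO, against 4.92 and 5.99 FPKM in Ctrl. The part of these cells in the levels of Cox6a2, Cox7a1 and Cox8b was not tested.

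**Figure D3:**
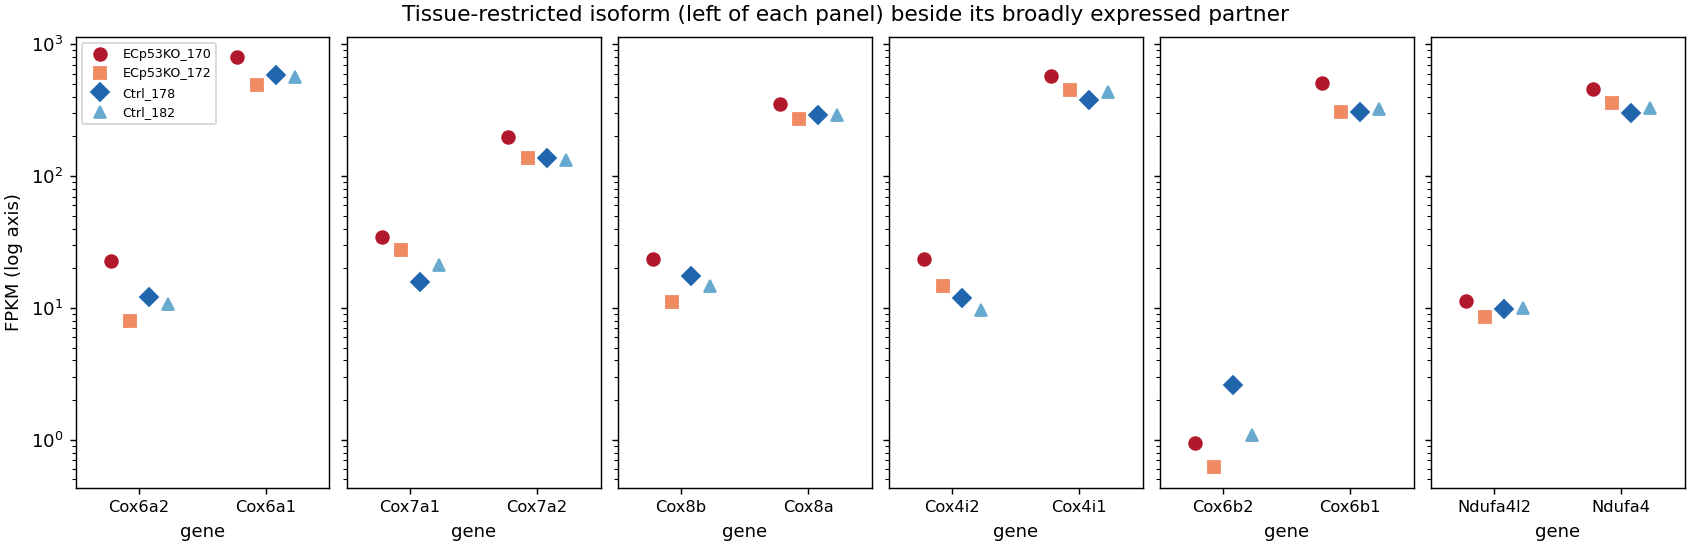
Level in FPKM (log axis) of each tissue-restricted isoform of complex IV and of its broadly expressed partner, in a panel for each pair, with 1 point a library. Cox7a1 and Cox4i2 are higher in both ECp53KO libraries than in both Ctrl libraries, whereas the ECp53KO libraries hold the highest and the lowest value of Cox6a2 and Cox8b.

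The other tissue-restricted isoforms gave 1 gene higher and 1 gene lower in both ECp53KO libraries. With Cox7a1, 33.3% of the 6 tested isoforms were higher and 16.7% lower without overlap, beside 19.1% and 16.8% of all tested genes. Cox4i2, the form of subunit IV known for lung and for vascular mural cells, had 23.3 and 14.7 FPKM in ECp53KO, against 11.8 and 9.63 FPKM in Ctrl. The groups did not overlap, with a log2 fold change of 0.74 ± 0.26 (SE; limma, unadjusted p = 0.0343, adjusted p = 0.864) and of 0.42 without ECp53KO_170. Cox4i1, its broadly expressed partner, was 30.9-fold more abundant and did not overlap either, at 570 and 452 FPKM in ECp53KO, against 380 and 432 FPKM in Ctrl. Cox4i2 made up 3.93% and 3.14% of the pair in ECp53KO, against 3.02% and 2.18% in Ctrl.

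Markers of pericytes and smooth muscle had fold changes in the same direction as Cox4i2. All 10 tested genes of that list had a positive fold change (51.7% of all tested genes had one) and 4 were higher without overlap (19.1% of all), among them Acta2, smooth muscle actin, at 21.3 and 16.8 FPKM in ECp53KO, beside 7.73 and 9.78 FPKM in Ctrl, and Myl9, a smooth muscle light chain, at 24.3 and 18.3 FPKM in ECp53KO, against 11.5 and 9.53 FPKM in Ctrl. Their limma unadjusted p-values were 0.00330 and 0.00514, that of Tagln, a further smooth muscle gene, was 0.00991, and none passed adjustment. Rgs5 was also higher without overlap (log2 fold change 0.48). The groups overlapped in Myh11, Des, Pdgfrb, Kcnj8, Abcc9 and Notch3, with log2 fold changes of 0.36, 0.38, 0.20, 0.20, 0.01 and 0.03. The part of mural cells in the level of Cox4i2 was not tested. Ndufa4l2, a further gene known from pericytes and a target of hypoxia signalling, did not follow, with 11.2 and 8.61 FPKM in ECp53KO, against 9.82 and 9.99 FPKM in Ctrl (log2 -0.01 ± 0.19, limma adjusted p = 0.995). Its share of the pair with Ndufa4 was 2.41% and 2.35% in ECp53KO, against 3.17% and 2.97% in Ctrl, without overlap. Ndufa4l2 overlaps Shmt2 on the other strand.

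Cox6b2, the testis form of subunit VIb, was the member lower in both ECp53KO libraries, with 0.939 and 0.619 FPKM there, against 2.61 and 1.09 FPKM in Ctrl (log2 -0.63 ± 0.35, limma adjusted p = 0.864). Both ECp53KO values were under the 1 FPKM that a gene had to average to be tested. Cox6b2 was tested only because of its Ctrl values, so its difference is a description. Its partner Cox6b1 was 274-fold more abundant. Cox6b1 stood at 506 and 306 FPKM in ECp53KO, beside 306 and 322 FPKM in Ctrl. Cox7b, the broadly expressed partner of Cox7b2, had 79.8 and 48.3 FPKM in ECp53KO, against 58.8 and 52.3 FPKM in Ctrl.

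The assembly factors of complex I were the group of members in which both ECp53KO libraries most often stood above both Ctrl libraries, in 5 of 7 genes (19.1% of all tested genes). All 7 had a positive fold change, with a median of 0.35 on the log2 scale, of 0.26 without ECp53KO_170 and of 0.37 with the transcript length trend removed. Their level was a small part of that of the subunits, between 2.35 and 32.8 FPKM. Ndufaf6, a factor needed to build the membrane arm around ND1, had 4.82 and 4.37 FPKM in ECp53KO, against 2.99 and 2.77 FPKM in Ctrl. Its groups did not overlap, with a log2 fold change of 0.53 ± 0.19 (SE; limma, unadjusted p = 0.0355, adjusted p = 0.864), and of 0.47 without ECp53KO_170. Ndufaf3 and Ndufaf4, which act together on the ubiquinone-binding module, had 25.3 and 18.4 FPKM and 5.39 and 4.58 FPKM in ECp53KO, against 13.7 and 15.9 FPKM and 3.81 and 3.54 FPKM in Ctrl. Ndufaf2, a late-acting chaperone, had 32.8 and 20.6 FPKM in ECp53KO, against 19.1 and 15.8 FPKM in Ctrl. Ndufaf1, of the intermediate assembly complex, had 6.33 and 6.30 FPKM in ECp53KO, beside 5.03 and 5.20 FPKM in Ctrl. The groups overlapped in Ndufaf5 and Ndufaf7, a hydroxylase and a methyltransferase that modify arginines of core subunits. No assembly factor passed adjustment, and Ndufaf2 and Ndufaf3 overlap Smim15 and Impdh2 on the other strand.

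Assembly factors of all complexes, 46 genes of which 45 were tested, showed a median log2 fold change of 0.24. The fold change was positive in 37, and 19 (42.2%) did not overlap, all higher in ECp53KO, beside 19.1% of all tested genes. The list includes Ndufaf1 to Ndufaf7, so 5 of the 19 are the genes counted above. Of the other complex I factors, Ecsit, Timmdc1, Tmem126b and 1810043H04Rik were higher without overlap. Acad9, Nubpl and Foxred1 overlapped, with log2 fold changes of -0.04, 0.26 and -0.17. Besides Ndufaf6, 3 factors had an unadjusted limma p under 0.05. Sdhaf1, needed for iron-sulfur insertion into Sdhb, had 17.9 and 18.9 FPKM in ECp53KO, against 12.2 and 12.1 FPKM in Ctrl (log2 fold change 0.56, limma unadjusted p = 0.0112, adjusted p = 0.864). Here ECp53KO_172 was the higher of the libraries. Coa6, which helps to deliver copper to complex IV, had 25.0 and 22.1 FPKM in ECp53KO, against 17.3 and 16.8 FPKM in Ctrl, and 1810043H04Rik, now named Ndufaf8, had 54.5 and 44.2 FPKM in ECp53KO, against 36.6 and 26.3 FPKM in Ctrl. Pet117 was listed at values close to 0 in ECp53KO_172 and Ctrl_178 and at 10.2 and 4.41 FPKM in the other libraries, and its value may be a failed estimate. No gene of the list passed adjustment.

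The remaining 3 members lie outside the subunits. Cox7a2l, a relative of Cox7a2 that joins complexes III and IV into supercomplexes, had 338 and 235 FPKM in ECp53KO, beside 199 and 248 FPKM in Ctrl, with overlap. Atp5s, known as factor B of ATP synthase, had 5.84 and 3.80 FPKM in ECp53KO, against 1.52 and 3.51 FPKM in Ctrl, without overlap. Atp5sl, whose human counterpart assists complex I assembly, had 14.0 and 8.96 FPKM in ECp53KO, against 13.1 and 13.5 FPKM in Ctrl.

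Dividing each gene by the median broadly expressed subunit of the same library set aside the shift that the subunits shared. On that scale 16 members were higher and 15 lower in both ECp53KO libraries than in both Ctrl libraries, and 60 overlapped. The same ratio did not overlap in 5.38% of all tested genes in the higher and 26.7% in the lower direction. The divisor centres the members and, being highest in ECp53KO_170, lowers the other genes in that library, so neither the near balance of 16 and 15 nor its contrast with all genes is a result. The largest positive differences of the mean log2 ratio were 0.82 for Atp5s, 0.58 for Cox4i2, 0.55 for Cox7a1, 0.53 for Ndufc1, 0.50 for Ndufs5 and 0.46 for Ndufaf6, and the largest negative ones were -1.36 for Cox6b2 and -0.46 for Atp5sl. Cox6b2 was under 1 FPKM in both ECp53KO libraries and was tested only because of its Ctrl values. Assembly factors were 4 of the 16 (Ndufaf2, Ndufaf3, Ndufaf4 and Ndufaf6). Among the 15 lower ones were Ndufs1 and Ndufv1, core subunits of complex I, as well as Ndufc2, Atp5d and Sdhd. The ratio of Ndufs1, which carries iron-sulfur clusters of the NADH-oxidising module, had log2 values of -2.67 and -2.68 in ECp53KO and of -2.37 and -2.42 in Ctrl. The differences of the ratio were not tested gene by gene.

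**Figure D4:**
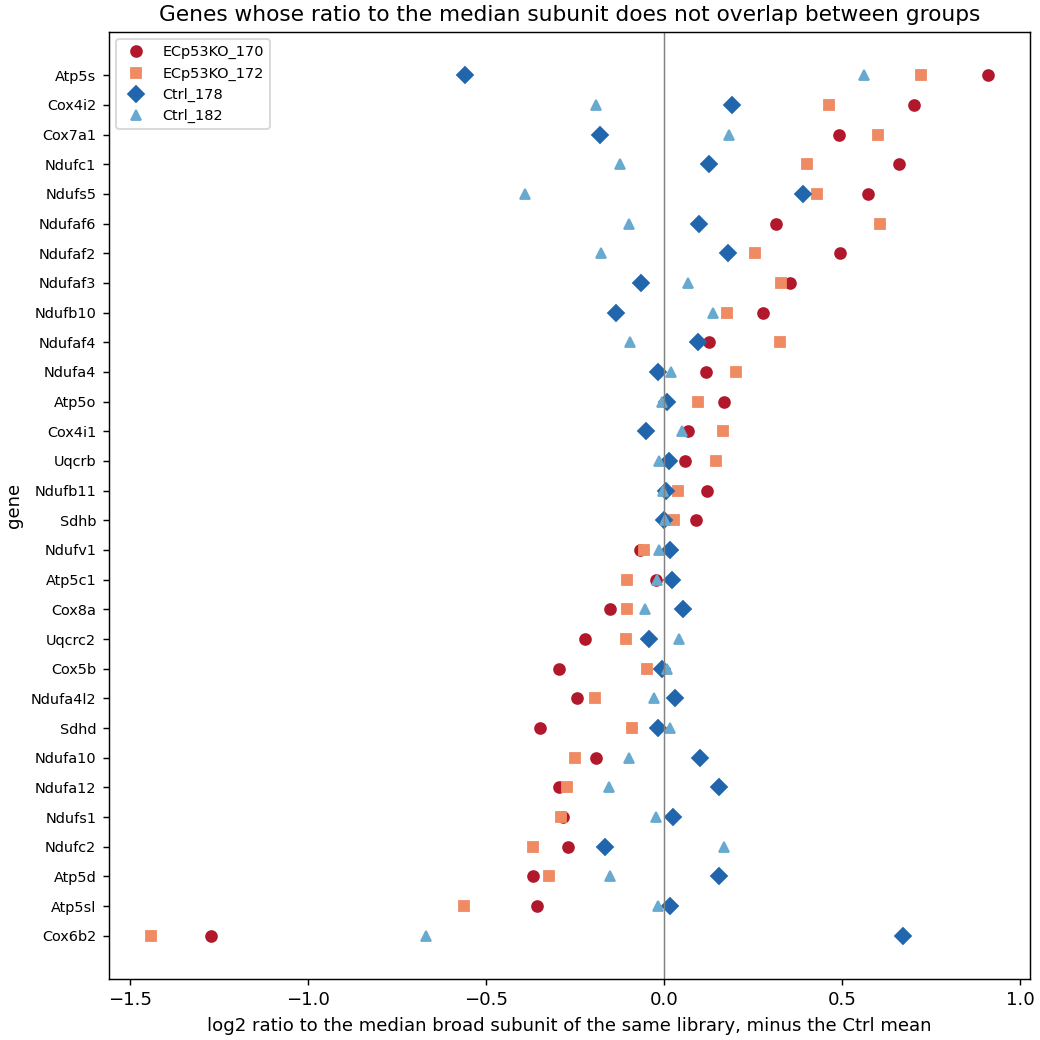
Log2 ratio of 30 of the 31 members whose groups do not overlap to the median broadly expressed subunit of the same library, drawn as the difference from the mean of the Ctrl libraries. There are 16 members on the higher side, led by Atp5s, Cox4i2 and Cox7a1, and 14 on the lower side. Cox6b2, which was under 1 FPKM in both ECp53KO libraries, is lowest.

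Transcript length went with the height of the ECp53KO_170 values. Respiratory chain transcripts are short, with a median of 755 nucleotides against 2586 over all tested genes. Across the 11269 tested genes with a length, the Spearman correlation of length with the difference of ECp53KO_170 from the other libraries was -0.434, and across the 91 members it was -0.371. For ECp53KO_172 the values were 0.310 and 0.249. They were also positive in the Ctrl libraries, at 0.167 and 0.0926 for Ctrl_178 and 0.225 and 0.134 for Ctrl_182. Each of these libraries is set against a mean that includes ECp53KO_170, so a positive sign is not particular to ECp53KO_172. All points of such a correlation come from 1 library and share its depth and scaling, so it is a description. After the trend with length was removed from each library, the median log2 fold change was 0.08 over the members, 0.05 for complex I, 0.13 for complex II, 0.11 for complex III and 0.08 for complex V. The genes of both ribosomes are also short. Of 82 tested genes of the cytosolic ribosome, 79 were highest in ECp53KO_170, and of 77 genes of the mitochondrial ribosome 68 were. Over all tested genes the share was 36.3%. The median log2 fold changes of the 2 ribosomes were 0.31 and 0.25. At an unadjusted limma p under 0.05, 3 of the 77 mitochondrial genes were higher (Mrps6, Mrpl40 and Mrps31), beside 1.97% of all tested genes. Of the 82 cytosolic genes 1 was lower, Rpl30, beside 2.82% of all. Rpl30 had 19.6 and 12.3 FPKM in ECp53KO, against 32.9 and 27.4 FPKM in Ctrl, far below most genes of that ribosome. The part of length, and of the erythroid, mural and cardiomyocyte RNA that was also highest in ECp53KO_170, in the levels of the subunits was not tested.

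**Figure D5:**
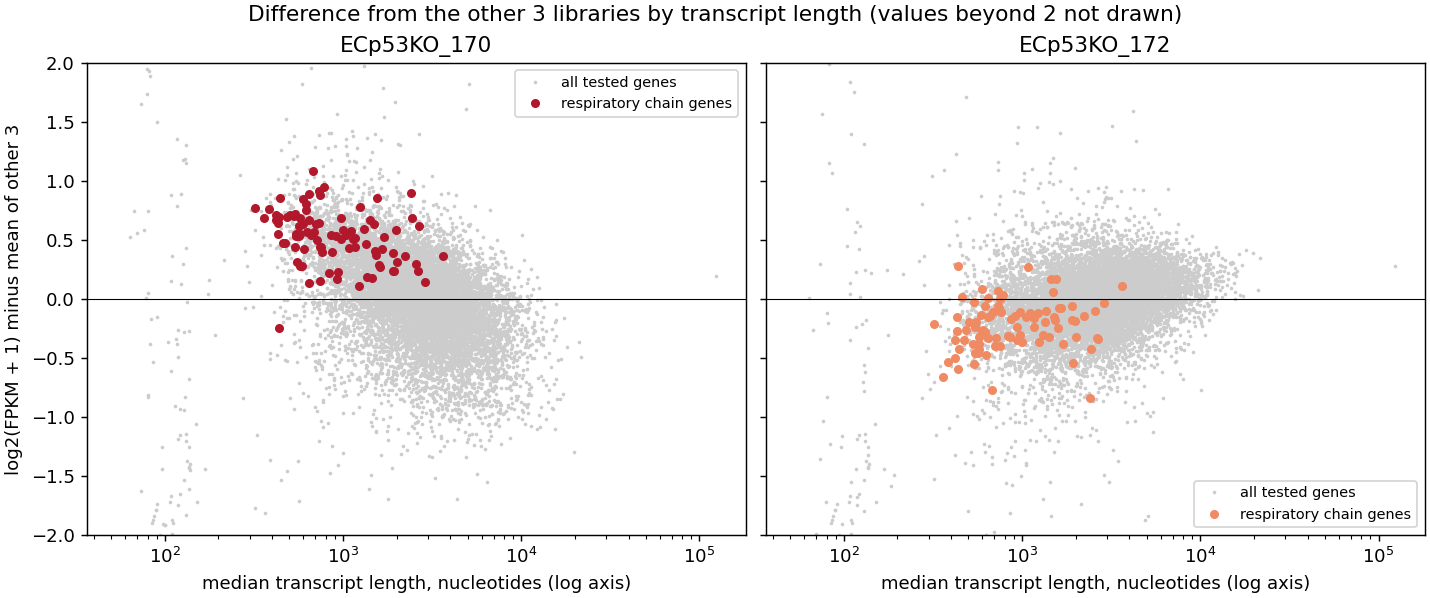
Log2(FPKM + 1) in ECp53KO_170 (left) and ECp53KO_172 (right) minus the mean of the other 3 libraries, against median transcript length in nucleotides (log axis), for all tested genes (grey) and the 91 tested respiratory chain genes (coloured). Short transcripts lie higher in ECp53KO_170 and lower in ECp53KO_172, with Spearman correlations over the members of -0.371 and 0.249. Those of Ctrl_178 and Ctrl_182, not drawn, are also positive (0.0926 and 0.134).

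Genes that feed or regulate the chain were read from fixed lists. The tricarboxylic acid cycle, which supplies NADH and succinate, had a positive fold change in 8 of 13 enzymes with a median of 0.11 on the log2 scale, and Cs, citrate synthase, stood at 51.2 and 52.6 FPKM in ECp53KO, beside 52.8 and 52.3 FPKM in Ctrl. Mobile carriers and supercomplex factors were positive in 11 of 12 tested genes with a median of 0.17, and Cycs, cytochrome c, had 31.8 and 22.8 FPKM in ECp53KO, against 25.7 and 25.2 FPKM in Ctrl. Transcriptional regulators of the chain were positive in 7 of 13 tested genes with a median of 0.07. Nrf1 had 16.3 and 13.03 FPKM in ECp53KO, against 10.9 and 13.9 FPKM in Ctrl, Ppargc1a, a coactivator of mitochondrial biogenesis, was under 1 FPKM in every library, and 0 genes of these 3 lists had an unadjusted limma p under 0.05.

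Of 8 genes that link p53 to respiration, 7 were tested, and 6 had a positive fold change, with a median of 0.13 on the log2 scale. The groups did not overlap in 6 of the 7, with 5 higher in ECp53KO (Sco2, Fdxr, Tigar, Tymp and Rrm2b), beside 19.1% of all tested genes, and 1 lower (Ucp2), beside 16.8%. Only Ucp2 had an unadjusted limma p under 0.05. Ucp2, a carrier of the inner mitochondrial membrane, had 152 and 158 FPKM in ECp53KO, against 218 and 293 FPKM in Ctrl. Its groups did not overlap, with a log2 fold change of -0.70 (limma, unadjusted p = 0.0204, adjusted p = 0.864). Sco2, a copper chaperone of complex IV that p53 is known to activate, had 27.4 and 24.5 FPKM in ECp53KO, against 22.3 and 20.0 FPKM in Ctrl. Both ECp53KO values were above both Ctrl values, with a log2 fold change of 0.28 and an unadjusted limma p of 0.130.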

How the data were processed

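Per the labels' protocols, polyadenylated RNA was made into libraries without strand information with a TruSeq kit and sequenced in pairs on an Illumina HiSeq. Among the tools listed in the submitters' processing notes are Trimmomatic 0.36, Cufflinks 2.2.1 and TopHat2 2.1.0, with the build mm10; for annotation and settings, nothing is stated in the sources used here. FPKM values were deposited by the authors for 24346 gene symbols, 1 column for each of the 4 libraries, which were matched by title. FPKM are not counts, and a value of exactly 0 can be an estimate that failed. Steps of 1 fragment were sought among low values, but only 13.6% to 17.4% lay within 10 percent of a step, so no step was established, the depth is unknown and no count test was run.

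The 93 members were taken by symbol, and all matched RefSeq by symbol or synonym. They and the gene lists were chosen with earlier results of these data known. Values were analysed as log2(FPKM + 1) in the 11332 genes that averaged 1 FPKM or more, with limma 3.58.1 in R 4.3.3 (trend, two-sided, Benjamini-Hochberg over all 11332 genes, threshold 0.05). That scale understates changes of low genes. The script was tested on simulated data. The 2 libraries of each group leave 2 residual degrees of freedom, to which shared variance adds 3.15, and an exact permutation test of 2 against 2 has 0.333 as its smallest two-sided p. Medians over genes are descriptions.

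Genes named are Trp53, the isoforms of complex IV and their partners, the complex II subunits, the highest member and the largest positive and negative fold change of each other complex, every member with an unadjusted p under 0.05, and up to 4 genes a list with such a p. Others (among them Ndufs5, Ndufs8, Uqcrb, Atp5b, Atp5s and the remaining assembly factors) were named after their values were seen, most because their groups did not overlap. The values of 1 member are not reported or drawn here. Of the members, 40 overlap another GENCODE M21 gene, 32 of them on the other strand, whose reads cannot be told apart here. Transcript length is the median over a gene's GENCODE M21 transcripts. Promoter windows are from RefSeq GRCm38.p6. The alternatives were another pseudocount, other filters and scalings, removal of small RNA loci or of a length trend, robust shrinkage, and each library left out.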

Additional observations from a re-analysis of the deposited data

How the results depend on the processing

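The count of respiratory chain genes past the threshold was 0 in both directions under every alternative, with smallest adjusted limma p-values between 0.321 and 0.9997. The shared positive direction was lost when ECp53KO_170 was left out. Over the 4 fits that leave out 1 library, the median log2 fold change ran between -0.0623 and 0.52 for the members, -0.139 and 0.55 for complex I, 0.01 and 0.33 for complex II, -0.0509 and 0.45 for complex III, -0.0537 and 0.49 for complex IV, -0.0623 and 0.47 for complex V, -0.32 and 0.70 for the tissue-restricted isoforms and 0.26 and 0.52 for the assembly factors. The log2 fold change ran between -0.22 and 0.48 for Cox6a1, -0.46 and 0.93 for Cox6a2, -0.11 and 0.27 for Cox8a and -0.49 and 0.52 for Cox8b. With the length trend removed, the sign turned for complex IV (-0.0686), the tissue-restricted isoforms (-0.0425), Cox6a1 (-0.0686), Cox8a (-0.118) and Cox8b (-0.169). With columns rescaled over loci other than small RNA it turned for Cox8a (-0.0246) and Cox8b (-0.0946), the median of the members was 0.11 and that of all tested genes -0.09. The causes were not tested. Members higher at an unadjusted p under 0.05 numbered 4, but 1 with no filter, 8 with small RNA loci left out (2.54% of all tested genes) and 0 to 48 with a library left out. Those lower numbered 0 to 2. Over all genes, 3 were called higher, but 5 with a pseudocount of 0.1 or robust shrinkage, 1 with no filter and 1 to 21 with a library left out. The 10 called lower became 4 without small RNA loci and 12 to 58 with a library left out. Leaving a group with 1 library assumes that it varies like the other group. No paired analysis was possible because ECp53KO and Ctrl libraries carry different numbers.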
